A study of Mus musculus with 14 samples.

Results

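The sirtuins and the FoxO factors were examined in the ovaries and uteruses of aged mice, to describe how much of each gene was present in either organ and whether stem cell conditioned medium moved it. The 10 genes, the 7 sirtuins Sirt1 to Sirt7 and the 3 forkhead genes Foxo1, Foxo3 and Foxo4, were chosen by their symbols out of 21853 protein-coding genes, by a rule that uses no measured value, although earlier results of these data were known when the set was chosen. All 10 were expressed well above the filter on low values (0.5 FPKM or more on average) in both tissues. FPKM counts the fragments of a gene relative to its length in kilobases and to all fragments that the library had mapped, so that the levels of different genes can be set side by side. RNA-seq had been performed on ovaries and uteruses of 7 mice, which gave 14 libraries; that an ovary and a uterus of the same number came from the same mouse is read from the label names and is not stated. The OC (old control) group held 3 mice that received normal saline, and the OT (old treatment) group held 4 mice that received conditioned medium of human amniotic membrane-derived mesenchymal stem cells (AMSC-CM). Both were injected into the tail vein in 6 injections 4 days apart, with 1 µL of AMSC-CM per g of body weight, and the medium was a mixture from 3 donors. All of these mice were female C57BL/6J mice aged 28 weeks. Before the treatment all had been given the gonadotropins PMSG and hCG, 10 IU each and 48 h apart, to synchronize the estrous cycle. Each library was made from whole tissue. In such bulk samples fewer cells of a type and less RNA per cell cannot be told apart.

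Sirtuins are enzymes that remove acyl groups from proteins and consume NAD+ in doing so, which ties their activity to the energy state of the cell. SIRT1, SIRT6 and SIRT7 are mostly found in the nucleus, SIRT2 mostly in the cytoplasm, and SIRT3, SIRT4 and SIRT5 in mitochondria. FoxO proteins are forkhead transcription factors that insulin signalling keeps out of the nucleus through phosphorylation by AKT, and that switch on genes of stress defence, cell cycle arrest and metabolism when that signal is low. Sirtuins deacetylate FoxO proteins, and in the ovary FOXO3 is known for holding primordial follicles dormant and FOXO1 for its high expression in granulosa cells.

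The sums of oocyte and smooth muscle genes went with the tissue labels. Genes of uterus patterning did so less clearly. Hoxa10 varied widely between ovaries, at 3.92 to 53.4 FPKM in the OC and 0.572 to 48.9 in the OT ovaries. Wnt4 of the same list was higher in ovary than in uterus, by 5.14 on the log2 scale. The summed FPKM of 8 oocyte genes was 19.6 to 51.3 in the ovaries and 1.71 to 2.8 in the uteruses, where Zp3 was listed at 0 in every library, while the sum of 6 smooth muscle genes was 625 to 1867 in the ovaries and 5189 to 10050.0 in the uteruses. The OT and OC uteruses also differed in marker genes, both of the uterus itself and of other cell types. The smooth muscle sum was 5189 to 6154 FPKM in the OC and 6467 to 10050.0 in the OT uteruses, and that of 8 genes of uterus patterning was 448 to 494 against 297 to 396, so that neither overlapped between groups. Of these 8 patterning genes, 7 were lower in the OT uteruses on average on the log2 scale, and Wnt4 was higher. The sum of 6 lymphocyte genes was 1.29 to 3.0 against 2.88 to 17.7. The sum of 12 adipocyte genes was 170 to 319 FPKM in the OC uteruses and 1356 to 12320.0 in the OT uteruses, with the highest value in the library OT1, and it was 259 to 371 in the OC ovaries and 300 to 1956 in the OT ovaries. The sum of 8 genes of stratified epithelium was 2.72 to 13.1 in the OC uteruses and 43.8 to 774 in the OT uteruses, and that of 6 macrophage genes was 200.2 to 216 against 224 to 572. The part of these cell types in the results for the sirtuin and FoxO genes was not tested. The number of fragments behind each library is unknown, because FPKM is already scaled to it.

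Upstream sequences of 2 members are given here, that of Sirt2 because it was the member whose libraries were fully separate between ovary and uterus, and that of Foxo3 because it was the most abundant member on average. Both are RefSeq sequences of the build GRCm38.p6 that end at the base before the annotated gene, 5′ to 3′ on the strand of the gene, with GC boxes (GGGCGG, or CCGCCC on the other strand) and CCAAT boxes (CCAAT, or ATTGG) in capitals. The Sirt2 stretch is chr7:28766502-28766734 on the plus strand and the Foxo3 stretch is chr10:42276756-42276945 on the minus strand.
Sirt2: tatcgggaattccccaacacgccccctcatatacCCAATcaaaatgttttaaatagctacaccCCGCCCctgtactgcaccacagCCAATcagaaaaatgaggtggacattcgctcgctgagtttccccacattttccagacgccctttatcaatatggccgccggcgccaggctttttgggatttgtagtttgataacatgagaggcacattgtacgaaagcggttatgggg
Foxo3: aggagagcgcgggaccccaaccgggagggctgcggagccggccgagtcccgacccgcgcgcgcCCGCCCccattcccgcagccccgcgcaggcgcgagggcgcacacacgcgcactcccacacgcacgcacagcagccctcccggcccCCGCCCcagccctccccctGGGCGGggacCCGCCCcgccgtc
Sirt2 carried 1 GC box and 2 CCAAT boxes in this stretch, and Foxo3 carried 4 GC boxes and no CCAAT box. RefSeq promoter entries were matched for 9 of the members, which gave 11 windows of the 250 bases before a start, since Sirt3 and Sirt6 had 2 each. A GC box was found in 8 of the 11 windows and in 32.7% of all 32851 promoters, and a CCAAT box in 4 of the 11 and in 33.8% of all. The E-box CACGTG was found in 1 of the 11, that of Sirt1, which carried it at 2 places, and in 6.02% of all promoters. The forkhead core TGTTTAC, searched on both strands, was found in 0 of the 11 windows and in 3.17% of all. A match or its absence is only a property of these letters in this window, and no binding was measured.

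On average Foxo3 was the most abundant of the 10 genes and Sirt4 the least abundant in both organs. In the 7 ovaries Foxo3 averaged 33.2 ± 1.43 FPKM (SD), and its lowest library, at 31.8, lay above the highest library of any other member. It was followed by Sirt2 with 22.8 ± 1.98, Sirt7 with 20.2 ± 1.39 and Foxo1 with 19.5 ± 3.83, whose libraries overlapped. Next came Sirt1 (10.7 ± 1.07), whose libraries were all below those of Foxo1, then Sirt3 (10.6 ± 1.64), Foxo4 (10.5 ± 1.67), Sirt6 (9.37 ± 0.592) and Sirt5 (8.69 ± 0.812), each overlapping its neighbours, and the highest Foxo4 library (13.9) just reached the lowest Foxo1 library (13.7). Sirt4 had 6.6 ± 0.673 FPKM, below all libraries of the others. In the 7 uteruses every member overlapped its neighbour in the order. Foxo3 and Sirt2 overlapped through OT1, with 20.8 and 29.5 FPKM. In the OC uteruses Foxo3 (41.1 to 49.9) lay above Sirt2 (33.6 to 35.3), and some other neighbours were separate there too. Over the 7 uteruses the means were 42.1 ± 9.99 for Foxo3, 32.8 ± 2.48 for Sirt2, 24.6 ± 5.78 for Foxo1, 21.7 ± 3.09 for Sirt7 and 15.5 ± 3.01 for Foxo4. They were 11.01 ± 0.934 for Sirt1, 9.95 ± 2.38 for Sirt3, 7.58 ± 1.22 for Sirt5, 7.52 ± 0.988 for Sirt6 and 5.53 ± 0.999 for Sirt4. Against all genes tested in the tissue, these levels placed Foxo3 at percentile 84.0 in ovary and 87.5 in uterus and Sirt4 at 35.01 and 28.7. Sirt2 made up 25.4% to 26.1% of the summed sirtuin FPKM on average in the 2 ovary groups and 33.2% to 35.4% in the 2 uterus groups. Foxo3 made up 49.7% to 53.2% of the summed FPKM of the 3 FoxO genes examined, on average in all 4 groups.

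**Figure D1:**
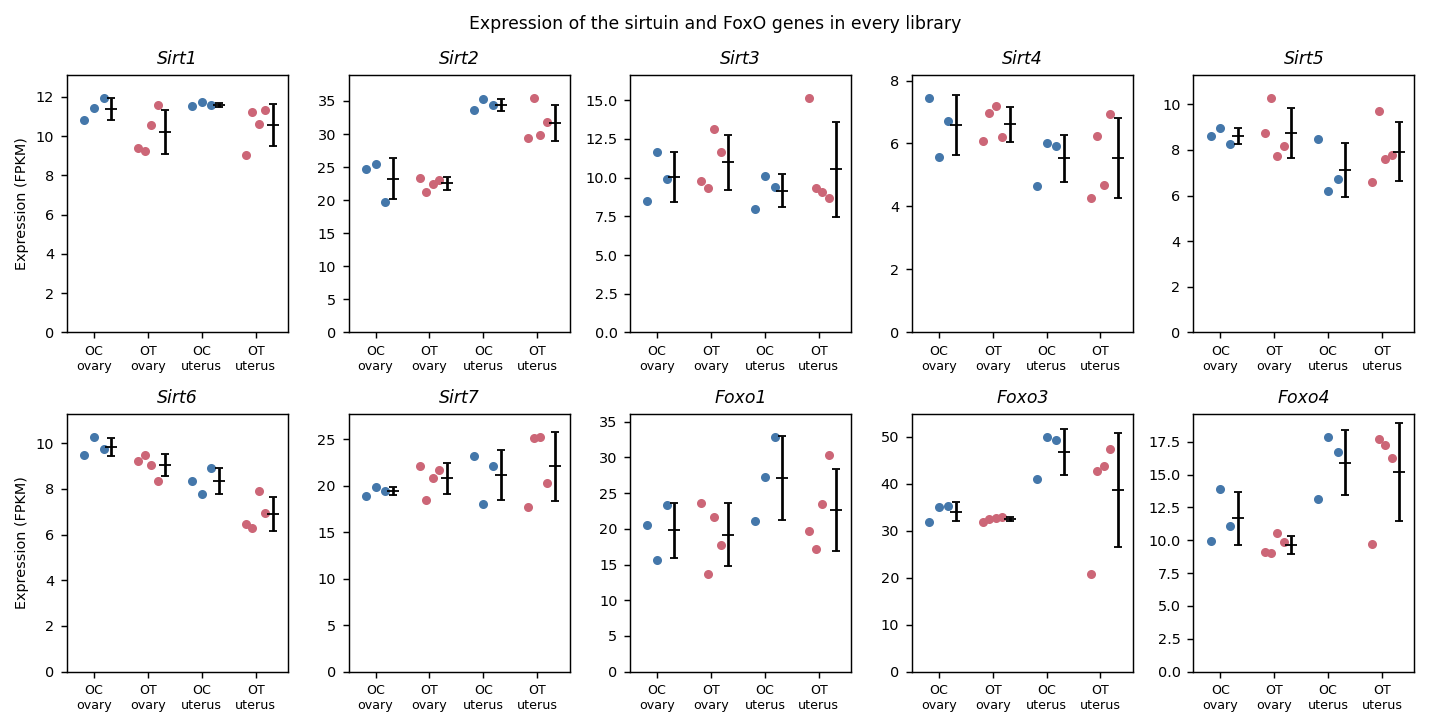
Expression in FPKM of the 7 sirtuin and 3 FoxO genes in the OC (blue) and OT (red) libraries of ovary and uterus; each point is a library, and the black bars give mean and SD. The 7 ovary points of Sirt2 all lie below its 7 uterus points, and the OT1 uterus stands apart for Sirt3 (15.1 FPKM) and Foxo3 (20.8 FPKM).

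Whether AMSC-CM was accompanied by a change of these genes was asked in each organ, and for none of the 10 was such a change detected. In the ovary 0 of 10 members had an unadjusted limma p of at most 0.05, a rule that 4.51% of the 14415 genes tested met, and 0 of 10 met the cutoffs of the study (2-fold or more, with the same limit on p), which 0.451% of all genes met. In the uterus the same counts were 0 of 10, beside 8.2% and 2.9% of the 14151 genes tested. No gene at all had a Benjamini-Hochberg adjusted limma p under 0.05 in either organ, with 650 genes in ovary and 1160 in uterus at an unadjusted p of at most 0.05. The log2 difference, OT minus OC on the log2(FPKM + 0.1) scale, was above 0 for 4 members in the ovary, where 46.6% of all genes were, and below 0 for 6, with a median of -0.05 beside -0.01 over all genes. In the uterus it was above 0 for 3, where 51.1% of all genes were, and below 0 for 7, with a median of -0.11 beside 0.01 over all genes. All 20 of the 95% intervals lay between a halving and a doubling, that is within 1 on the log2 scale, the widest reaching -0.99 for Foxo3 in the uterus. Smaller differences than these intervals allow were not detectable with 3 and 4 mice.

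**Figure D2:**
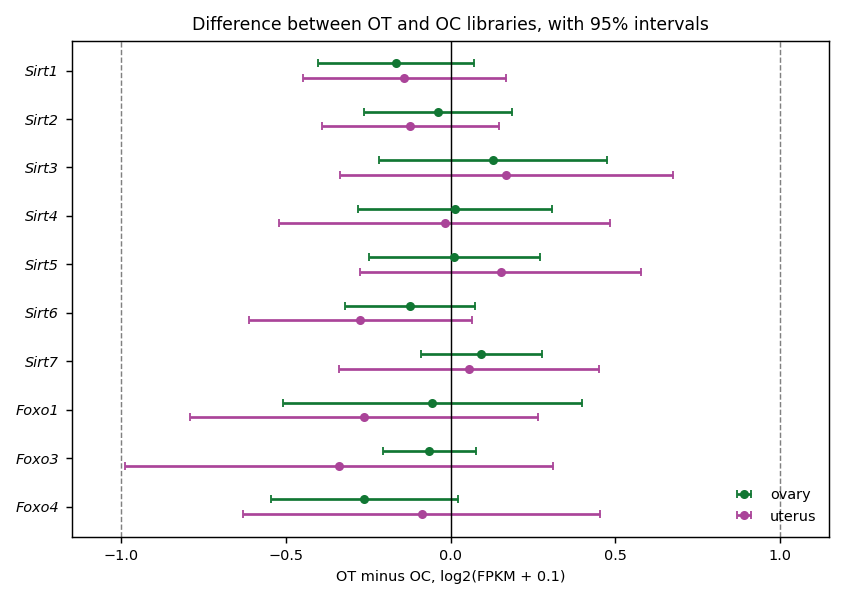
Log2 difference between OT and OC libraries (points) with 95% intervals (bars) for each gene in ovary (green) and uterus (purple), from limma; the dashed lines mark a halving and a doubling. Every interval holds 0, and those of the uterus are wider, with the widest, from -0.99 to 0.31, for Foxo3.

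Of the nuclear sirtuins, Sirt1 (ENSMUSG00000020063.16, chr10:63319005-63381704, minus strand, mm10), the best-studied deacetylase of p53 and FoxO proteins, had 10.8, 11.4 and 11.9 FPKM in the OC ovaries and 9.38, 9.23, 10.6 and 11.6 in the OT ovaries. The groups overlapped through OT4, and the log2 difference was -0.17 ± 0.10 (SE, limma, unadjusted p = 0.148). In the uterus Sirt1 had 11.5, 11.7 and 11.6 FPKM in the OC and 9.04, 11.2, 10.6 and 11.3 in the OT libraries. All OT uteruses thus lay below all OC uteruses, which was the case for 5.48% of all genes tested, although the highest OT and the lowest OC library, 11.3 and 11.5, were close. The difference was -0.14 ± 0.13 (limma, unadjusted p = 0.323), and the exact permutation p of 0.0571 is the smallest that 3 against 4 libraries can give. Sirt1 was the only member with separate groups in the uterus, and 0 of 10 were separate in the ovary, where 5.91% of all genes were.

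Sirt6 (ENSMUSG00000034748.16, chr10:81621785-81627797, minus strand), a chromatin deacetylase linked to DNA repair and life span, had 9.49, 10.3 and 9.74 FPKM in the OC ovaries and 9.22, 9.49, 9.04 and 8.36 in the OT ovaries. Its uterus values were 8.37, 7.76 and 8.91 FPKM in the OC and 6.45, 6.27, 7.91 and 6.97 in the OT libraries. In both organs 3 of the 4 OT libraries lay below the OC range and the other lay inside it. The log2 difference was -0.12 ± 0.09 in ovary (limma, unadjusted p = 0.193) and -0.27 ± 0.15 in uterus (unadjusted p = 0.0982, adjusted p = 0.624), the smallest p of the 10 in the uterus.

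Sirt7 (ENSMUSG00000025138.14, chr11:120618372-120625240, minus strand), a sirtuin enriched in the nucleolus, had 18.9, 19.8 and 19.5 FPKM in the OC and 22.1, 18.4, 20.8 and 21.6 in the OT ovaries. In the uterus it had 23.2, 18.04 and 22.1 FPKM in the OC and 17.7, 25.1, 25.2 and 20.2 in the OT libraries. The OT values reached above the OC values in both organs and below them as well, with differences of 0.09 ± 0.08 and 0.06 ± 0.17 by limma. Its annotated exons share 124 bases on the same strand with those of Mafg, so that its level is less certain than that of the other members.

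Sirt2 (ENSMUSG00000015149.14, chr7:28766735-28788661, plus strand), the mainly cytoplasmic sirtuin and a deacetylase of tubulin, had 24.7, 25.5 and 19.7 FPKM in the OC and 23.3, 21.2, 22.5 and 23.1 in the OT ovaries. The 4 OT ovaries lay within the span of the OC ovaries. In the uterus it had 33.6, 35.3 and 34.3 FPKM in the OC and 29.5, 35.5, 29.8 and 31.9 in the OT libraries, of which 3 were below the OC range and 1 just above it. The differences were -0.04 ± 0.10 in ovary and -0.12 ± 0.12 in uterus by limma.

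Among the mitochondrial sirtuins, Sirt3 (ENSMUSG00000025486.17, chr7:140863666-140882309, minus strand), the main deacetylase of mitochondrial enzymes, had 8.49, 11.7 and 9.95 FPKM in the OC and 9.76, 9.35, 13.2 and 11.7 in the OT ovaries, which overlapped. In the uterus the OC libraries had 7.99, 10.1 and 9.37 FPKM and the OT libraries 15.1, 9.31, 9.06 and 8.68. The OT1 uterus was the highest of the 14 libraries, while the other 3 OT uteruses lay inside the OC range. The difference in uterus was 0.17 ± 0.22 (limma, unadjusted p = 0.464) and -0.02 without OT1, and that in ovary was 0.13 ± 0.15 (unadjusted p = 0.423).

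Sirt4 (ENSMUSG00000029524.16, chr5:115478010-115484725, minus strand), which restrains glutamate dehydrogenase, had 7.45, 5.56 and 6.73 FPKM in the OC and 6.09, 6.96, 7.19 and 6.2 in the OT ovaries. Its uterus values were 4.66, 6.0 and 5.92 FPKM in the OC and 4.25, 6.25, 4.67 and 6.93 in the OT libraries. The OT libraries fell inside the OC range in the ovary and to both sides of it in the uterus, and the differences were 0.01 ± 0.13 and -0.02 ± 0.22 by limma. Sirt5 (ENSMUSG00000054021.6, chr13:43365496-43395203, plus strand), which removes succinyl and malonyl groups, had 8.62, 8.98 and 8.28 FPKM in the OC and 8.74, 10.3, 7.73 and 8.19 in the OT ovaries. In the uterus it had 8.47, 6.19 and 6.71 FPKM in the OC and 6.61, 9.7, 7.59 and 7.8 in the OT libraries. The groups overlapped in both organs, with OT2 the highest library in each, and the differences were 0.01 ± 0.11 and 0.15 ± 0.19 by limma.

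Of the FoxO genes, Foxo1 (ENSMUSG00000044167.6, chr3:52268336-52353221, plus strand) varied most between ovaries and overlapped between groups in both organs. It had 20.5, 15.6 and 23.3 FPKM in the OC and 23.6, 13.7, 21.7 and 17.7 in the OT ovaries. The OT uteruses had 19.7, 17.1, 23.5 and 30.3 FPKM and the OC uteruses 21.1, 27.3 and 32.8. The differences were -0.06 ± 0.20 in ovary and -0.26 ± 0.23 in uterus by limma.

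Foxo3 (ENSMUSG00000048756.11, chr10:42181841-42276755, minus strand), the FoxO factor of follicle dormancy, varied less between ovaries, relative to its mean, than the other 9 members. It had 31.8, 35.1 and 35.2 FPKM in the OC and 31.9, 32.5, 32.8 and 32.9 in the OT ovaries, a difference of -0.07 ± 0.06 (limma, unadjusted p = 0.321). In the uterus the OC libraries had 41.1, 49.9 and 49.4 FPKM and the OT libraries 20.8, 42.7, 43.7 and 47.4. The OT1 uterus had less Foxo3 than any other library of either organ, and the other 3 OT uteruses lay inside the OC range. The difference was -0.34 ± 0.28 (limma, unadjusted p = 0.264) and -0.07 without OT1.

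Foxo4 (ENSMUSG00000042903.8, chrX:101254528-101260873, plus strand), an X-linked member of the family, had 9.98, 13.9 and 11.1 FPKM in the OC and 9.1, 9.07, 10.5 and 9.84 in the OT ovaries. Of the 4 OT ovaries, 3 were below all OC ovaries and the other overlapped them. The difference of -0.26 ± 0.12 had the smallest p of the 10 in the ovary (limma, unadjusted p = 0.0657, adjusted p = 0.997), and it leaned on single OC libraries. It was -0.37 (limma, unadjusted p = 0.0215) without OC1 and -0.13 (limma, unadjusted p = 0.278) without OC2, the ovary with the highest value. In the uterus Foxo4 had 13.1, 17.8 and 16.7 FPKM in the OC and 9.72, 17.7, 17.2 and 16.2 in the OT libraries, a difference of -0.09 ± 0.24. Again OT1 was the lowest of the uteruses, and the difference was 0.11 without it.

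The library OT1 thus stood apart in the uterus for several members at once. It was the lowest of the 7 uteruses for 6 members (Sirt1, Sirt2, Sirt4, Sirt7, Foxo3 and Foxo4) and the highest for Sirt3. Set against the OC mean of the uterus, its 10 values had a median absolute log2 deviation of 0.362, against 0.079 to 0.185 in the other 6 uteruses, and ranged from -1.16 for Foxo3 to 0.73 for Sirt3. The OT1 ovary did not stand apart in this way, with a median absolute deviation of 0.0963 within a range of 0.0536 to 0.127 over the 7 ovaries. The OT1 uterus was also the library with the highest adipocyte sum (12320.0 FPKM) and the highest total FPKM (577500.0, against 425900.0 to 471900.0 in the other uteruses), and the part of either in its member values was not tested. Without OT1 the uterus still had 0 of 10 members with an unadjusted limma p of at most 0.05.

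**Figure D3:**
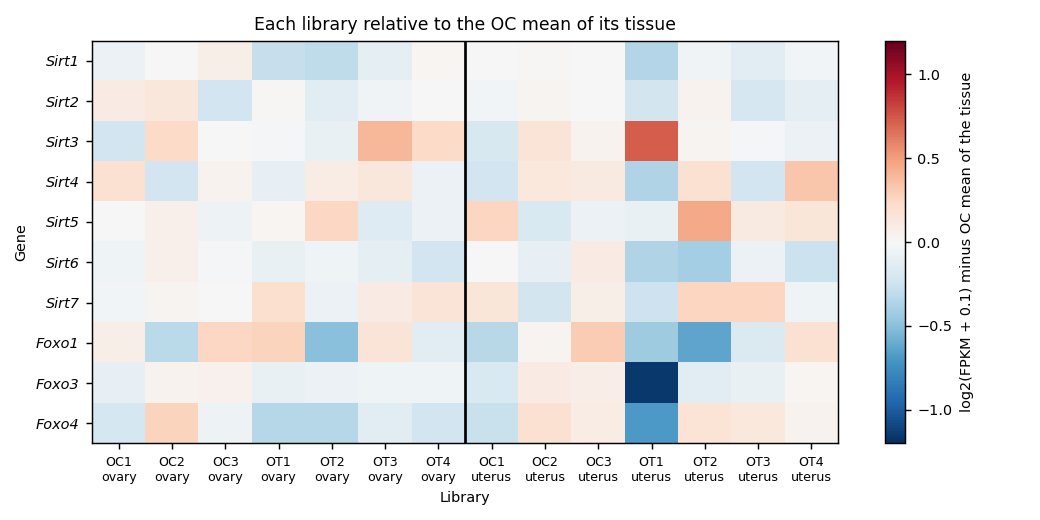
Difference of each library from the OC mean of its tissue, in log2(FPKM + 0.1), for the 10 genes (rows) in 14 libraries (columns, ovary left and uterus right of the line); red is higher and blue is lower. The column of the OT1 uterus holds both the lowest value, -1.16 for Foxo3, and the highest, 0.73 for Sirt3.

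Between the organs, Sirt2 and Foxo4 were lower and Sirt6 was higher in the ovary than in the uterus. These were 3 of 10 members at an adjusted limma p under 0.05, a smaller share than the 52.9% of the 14557 genes tested (26.8% higher and 26.1% lower in ovary), and the median absolute difference was 0.29 on the log2 scale for the members and 0.37 for all genes. Sirt2 differed by -0.53 ± 0.07 (limma, adjusted p = 3.9e-05), with 19.7 to 25.5 FPKM in the ovaries and 29.5 to 35.5 in the uteruses. It was the only member whose 7 ovaries and 7 uteruses did not overlap, and 11.5% of all genes were separate in this direction. Foxo4 differed by -0.53 ± 0.14 (adjusted p = 0.00577), with 9.07 to 13.9 FPKM in ovary and 9.72 to 17.8 in uterus, where the lowest library was OT1. Sirt6 was higher in ovary by 0.31 ± 0.08 (adjusted p = 0.00414), with 8.36 to 10.3 FPKM against 6.27 to 8.91. In the OC libraries alone the differences were -0.57 for Sirt2 (adjusted p = 0.00559 by limma), -0.45 for Foxo4 (adjusted p = 0.0636) and 0.23 for Sirt6 (adjusted p = 0.0995), so that the last pair did not pass there.

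The remaining 7 members did not pass in this comparison. Foxo3 differed by -0.32 ± 0.15 (limma, adjusted p = 0.0988), and this value rested on the libraries numbered OT1, without which it was -0.45 with an adjusted p of 7.5e-05 and 4 members passed, beside 59.7% of all genes. In the OC libraries alone the Foxo3 difference was also -0.45 (adjusted p = 0.00907 by limma). Foxo1 differed by -0.34 ± 0.16 (adjusted p = 0.0957), Sirt4 by 0.26 ± 0.13 (adjusted p = 0.0997) and Sirt5 by 0.21 ± 0.11 (adjusted p = 0.111). Sirt3, Sirt7 and Sirt1 had differences of 0.11, -0.09 and -0.04, smaller than their SE of 0.14, 0.09 and 0.08. All 3 FoxO genes were below 0, while 4 of the sirtuins were above 0 and 3 below, so that 4 of the 10 were above 0 beside 50.4% of all genes.

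**Figure D4:**
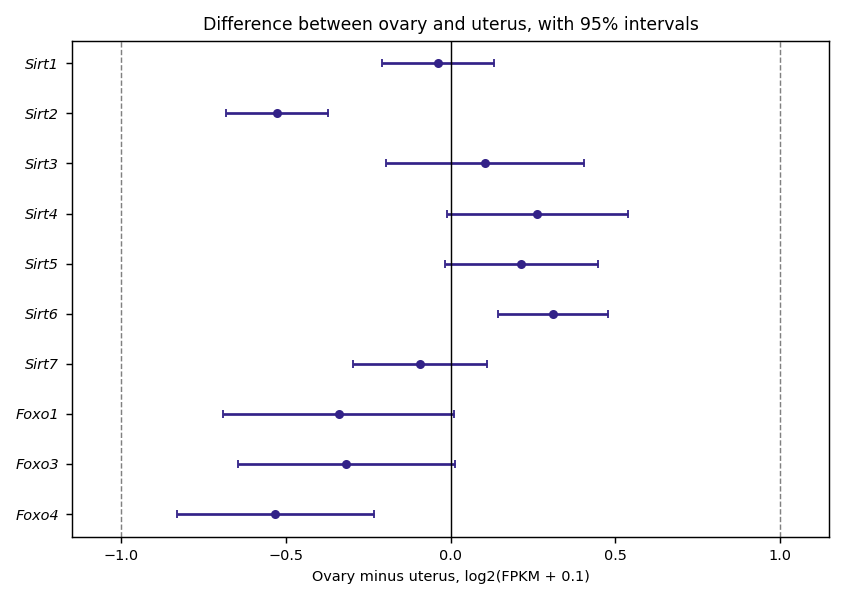
Log2 difference between ovary and uterus (points) with 95% intervals (bars) from the limma fit of all 14 libraries, with dashed lines at a halving and a doubling. The intervals of Sirt2 and Foxo4 lie below 0 and that of Sirt6 lies above 0, and the other 7 hold 0.

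Whether the 2 organs responded differently to AMSC-CM was tested as the OT minus OC difference in uterus minus that in ovary. No member passed, with 0 of 10 at an unadjusted limma p of at most 0.05 beside 5.12% of all 14557 genes. The values ranged from -0.27 ± 0.31 for Foxo3 to 0.17 ± 0.28 for Foxo4, and the smallest unadjusted limma p was 0.341, for Sirt6 (-0.15 ± 0.15). Their 95% intervals were wide, as from -0.93 to 0.39 for Foxo3, so that a moderate difference between organs was not detectable with these mice.

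The genes around the 10 members were described by 5 lists, and none of their genes passed an adjusted limma p of 0.05 between OT and OC in either organ. For NAD+ metabolism, which supplies and consumes the cofactor of the sirtuins, 14 of 16 genes were tested in the ovary and 15 in the uterus, with medians of 0.06 and 0.08. An unadjusted limma p of at most 0.05 was met by 4.51% of all genes tested in ovary and by 8.2% in uterus. Nnmt, whose enzyme methylates nicotinamide and is abundant in fat and liver, was the single gene of the list to meet it in either organ. It had 4.05, 5.52 and 4.5 FPKM in the OC and 11.3, 12.2, 5.72 and 6.94 in the OT ovaries, a difference of 0.87 ± 0.27 (limma, unadjusted p = 0.0105). In the uterus it had 6.08, 4.85 and 4.41 FPKM in the OC and 44.9, 14.6, 13.4 and 9.06 in the OT libraries, a difference of 1.71 ± 0.48 (limma, unadjusted p = 0.00749, adjusted p = 0.503). All OT libraries were above all OC libraries in both organs. In ovary 5.91% of all genes tested were separate in either direction, and the share that was higher in uterus is not reported here. Nnmt was highest in the libraries with the highest adipocyte sum, OT1 and OT2 in the ovary and OT1 in the uterus. Its relation to that sum was not tested. Without OT1 the uterus difference was 1.24 (limma, unadjusted p = 0.000635, adjusted p = 0.147). The other named genes of the list did not pass, with the extremes at Nmrk1 (-0.09), Nmnat2 (-0.09) and Bst1 (0.56) in ovary and Sarm1 (-0.76), Nmrk1 (-0.10) and Qprt (0.78) in uterus.

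The list of sirtuin substrates, mostly mitochondrial enzymes and transcription regulators, had 14 of 15 genes tested in each organ. The median was 0.04 in ovary, and it was 0.28 in uterus, where 12 of the 14 were above 0 beside 51.1% of all genes. Without OT1 the uterus median was 0.09 with the same count of 12 above 0. Acss2, the cytosolic and nuclear acetyl-CoA synthetase, had 8.43, 8.59 and 8.63 FPKM in the OC and 58.8, 10.4, 10.2 and 12.0 in the OT uteruses. The difference of 0.95 ± 0.58 did not pass (limma, unadjusted p = 0.141). Without OT1 the Acss2 difference was 0.34 ± 0.12 (limma, unadjusted p = 0.0238, adjusted p = 0.445). Other extremes were Ppara at 0.80 and Trp53 at -0.08 in uterus, and Hif1a at -0.11, Ppara at 0.19 and Ppargc1a at 0.21 in ovary. Ndufa9 was at 0.16 in ovary (limma, unadjusted p = 0.0433, adjusted p = 0.997). Idh2 was at 0.47 in uterus (limma, unadjusted p = 0.0251, adjusted p = 0.555). With all libraries, Ndufa9 and Idh2 were the genes of the list below an unadjusted limma p of 0.05, and they are named after their values were seen. Of all genes tested, 4.51% in ovary and 8.2% in uterus had an unadjusted p of at most 0.05.

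Upstream of FoxO, in insulin receptor and AKT signalling, 16 of 17 genes were tested, with medians of -0.04 in ovary and -0.07 in uterus. No gene of this list had an unadjusted p of at most 0.05 in ovary, where the extremes were Sgk3 (-0.19), Irs1 (-0.11), Akt2 (0.09) and Pik3cb (0.25). In uterus the extremes were Igf1r (-0.55), Rictor (-0.48), Pik3cb (0.32) and Akt2 (0.32). Rictor, a part of the mTORC2 kinase complex that phosphorylates AKT, had an unadjusted limma p of 0.0409. Sgk3, a FoxO kinase named after its value was seen, was at -0.41 with an unadjusted limma p of 0.0269. Of all genes tested in uterus, 8.2% had an unadjusted p of at most 0.05. Among 15 regulators that modify FoxO proteins or sirtuins, medians were 0.00 in ovary and -0.07 in uterus. The acetyltransferase Ep300 had 24.0, 25.1 and 24.9 FPKM in the OC and 13.4, 19.1, 19.6 and 19.2 in the OT uteruses. All OT libraries were lower, as for 5.48% of all genes tested. The Ep300 difference was -0.48 ± 0.16 (limma, unadjusted p = 0.0175, adjusted p = 0.55). Its paralog Crebbp was at -0.51 ± 0.21 (limma, unadjusted p = 0.044), and the upper extremes were Ywhag (0.49) and Stub1 (0.28). In ovary none of the regulators had an unadjusted p of at most 0.05, with extremes at Hdac4 (-0.15), Stk4 (-0.10), Ccar2 (0.15) and Skp2 (0.15).

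Of 20 FoxO target genes, 16 were tested in ovary and 19 in uterus. Of all genes tested, 4.51% in ovary and 8.2% in uterus had an unadjusted limma p of at most 0.05. The ovary had 8 above and 8 below 0, and Bcl6, a transcriptional repressor, had 11.7, 10.9 and 9.52 FPKM in the OC and 8.78, 6.76, 6.45 and 7.93 in the OT libraries. All OT ovaries were lower, and 5.91% of all genes tested in ovary were separate in either direction. The Bcl6 difference was -0.52 ± 0.13 (limma, unadjusted p = 0.00409, adjusted p = 0.997). Gadd45a, a stress response gene named after its value was seen, was at -0.21 with an unadjusted limma p of 0.0357, and the other extremes of the ovary were Fbxo32 (-0.42), Bcl2l11 (0.22) and Pck1 (1.14), which did not pass. In the uterus 6 of 19 were above 0, beside the 51.1% of all genes, and 13 were below, and the median was -0.27, or -0.14 without OT1. The only targets to meet the cutoffs of the study there were Cat and Pck1, beside 2.9% of all genes tested in uterus. Catalase, Cat, had 31.2, 34.95 and 34.1 FPKM in the OC and 239.8, 52.9, 76.4 and 51.0 in the OT uteruses, a difference of 1.33 ± 0.50 (limma, unadjusted p = 0.0282, adjusted p = 0.564). Pck1, an enzyme of gluconeogenesis in liver and of glycerol synthesis in fat, had 0.742, 8.02 and 10.7 FPKM in the OC and 343.1, 7.26, 52.9 and 31.1 in the OT uteruses. The groups overlapped through OT2, and the difference was 3.43 ± 1.32 (limma, unadjusted p = 0.0314, adjusted p = 0.57). Without OT1 neither met the cutoffs, Cat at 0.82 (limma, unadjusted p = 0.00141) and Pck1 at 2.46 (unadjusted p = 0.0551). Both were highest in OT1, the uterus with the highest adipocyte sum, and the part of that sum was not tested. Rbl2, a retinoblastoma-related gene named after its value was seen, was at -0.40 with an unadjusted limma p of 0.0122, and the lower extremes were Igfbp1 (-1.05), at 0 FPKM in some libraries of both groups, and Gadd45a (-0.86).

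**Figure D5:**
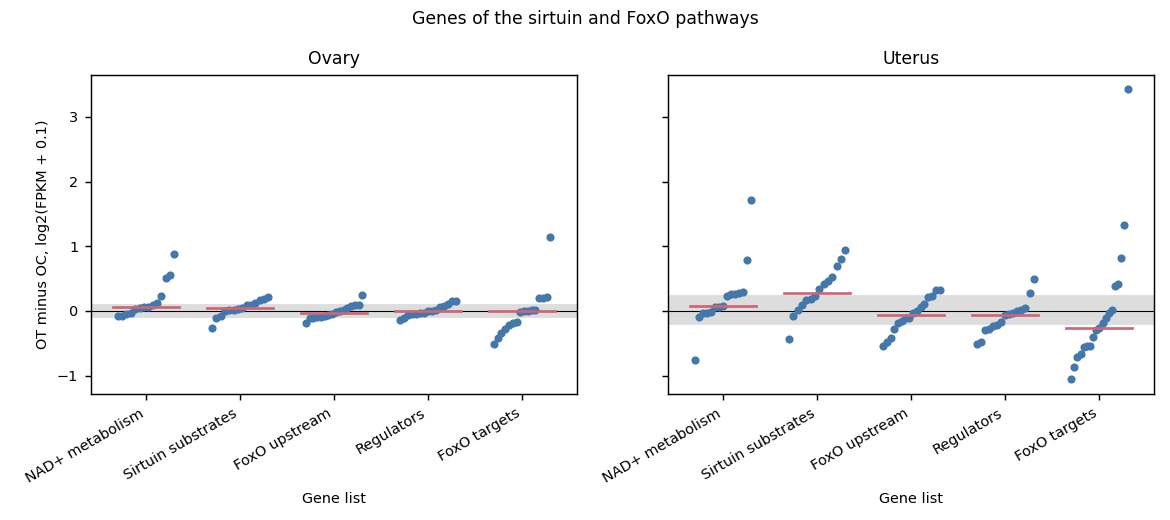
Log2 difference between OT and OC libraries for each tested gene (points) of the 5 lists in ovary and uterus, with the median of the list (red line) and the span between the lower and upper quartiles of all genes tested (grey band). The highest points are Pck1 (3.43) and Nnmt (1.71) in the uterus, and the medians in the ovary all lie inside the grey band. In the uterus, where the band spans -0.198 to 0.227, the median of sirtuin substrates (0.28) lies above it and that of FoxO targets (-0.27) below it.

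Between the organs, 41 of the 77 genes tested on the same lists passed an adjusted limma p of 0.05, a share near the 52.9% of all genes. Of 15 NAD+ genes tested, 5 were higher in ovary, Nadk (0.81), Nampt (0.52), Nmrk1 (0.48), Parp1 (0.46) and Parp2 (0.33), and 3 were lower, Sarm1 (-1.34), Qprt (-0.96) and Bst1 (-0.82). Nampt makes the limiting step of NAD+ salvage, and the PARP enzymes and Sarm1 consume NAD+. Of 14 sirtuin substrates, Ppara (1.13) was among those higher in ovary and Glud1 (-0.60) was lower. Of 16 genes upstream of FoxO, 4 were higher in ovary, Sgk1 (2.03), Mtor (0.55), Igf1r (0.53) and Insr (0.46), and 7 were lower, among them Sgk3 (-1.12), Irs2 (-0.70), Irs1 (-0.62), Pik3cb (-0.54), Pik3r1 (-0.35) and Pik3ca (-0.22). Of 15 regulators, Skp2 (0.80), Mdm2 (0.35), Ccar2 (0.18) and Usp7 (0.15) were higher in ovary, and Hdac7 (-0.90), Crebbp (-0.39), Ep300 (-0.32) and Ywhaz (-0.20) were lower. Of 17 FoxO targets, 2 were higher in ovary, the cell cycle inhibitor Cdkn1b (1.23) and the mitochondrial superoxide dismutase Sod2 (0.52). The 9 that were lower were Fbxo32 (-1.95), Fasl (-1.23), Pdk4 (-1.14), Tnfsf10 (-0.96), Cdkn1a (-0.87), Txnip (-0.72), Sesn1 (-0.55), Bcl6 (-0.49) and Rbl2 (-0.22), which include genes of muscle atrophy, cell death and cell cycle arrest.

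Across the 14 libraries, after the mean of each tissue was subtracted, Foxo3 and Foxo4 were the most alike of the 45 member pairs, with a Pearson r of 0.821, and 0.614 without the OT1 uterus, a library left out after its values were seen. Sirt3 and Foxo3 had an r of -0.648, which was 0.0734 without that library, so that the opposed values of the pair rested on it. Those of Sirt5 and Foxo1 did not, with an r of -0.613 and of -0.748 without that library. Of 13652 other genes, those most like each member over the 14 libraries were Stap2 (0.965) and Zfp235 (0.919) for Sirt1, Chkb (0.876) and Pigc (0.838) for Sirt2, and Ppic (0.884) and Tmem167 (0.879) for Sirt3. They were Rnf186 (0.874) and Gnpda1 (0.865) for Sirt4, Pdxk (0.834) and Mavs (0.824) for Sirt5, Sbno2 (0.884) and Sectm1a (0.881) for Sirt6, and Fam198a (0.889) and Cirbp (0.862) for Sirt7. For the FoxO genes they were Phf13 (0.906) for Foxo1, Tnrc6c and Kmt2a (0.981 each) for Foxo3, and Gm10638 (0.938) and Procr (0.937) for Foxo4. The r of Foxo3 with Tnrc6c and with Kmt2a was 0.88 without the OT1 uterus, and that of Sirt3 was 0.742 with Ppic and 0.741 with Tmem167. These are the highest of many correlations over libraries that share their normalization, and they are given as a description only.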

How the data were processed

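RNA-seq values of 3 OC and 4 OT mice, with an ovary and a uterus library for each mouse number in the labels, were analysed, and groups and replicate numbers were taken from the labels. The deposited values were FPKM per gene. The authors had made stranded, rRNA-depleted libraries from 700.0 ng of total RNA, used Skewer 0.2.2 for trimming, STAR 2.5 for mapping to mm10 and Cufflinks 2.2.1 for quantification; Cuffdiff, which they used for differences, needs the reads and was not run here. All 21853 identifiers were matched to symbols and positions in GENCODE M21. Values were not scaled further, since FPKM is relative to the mapped fragments of a library, and the composition of a library can therefore shift every gene in it. Genes that averaged 0.5 FPKM or more were fitted with limma 3.58.1 (R 4.3.3; lmFit, eBayes with trend) on log2(FPKM + 0.1), which understates changes of low genes, per tissue and in a fit of 14 libraries for the differences between tissues and in response, with Benjamini-Hochberg adjustment over all genes tested. Single members were also tested with a two-sided exact permutation test over the 35 splits of 3 against 4. The limma step was tested on simulated data. Other steps were run in Python 3.11.15.

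The members and gene lists were chosen with earlier results of these data known. All 10 members were named. From the lists, the genes named were those at the study's cutoffs or an adjusted p under 0.05 and the 2 highest and 2 lowest per list and tissue. For each member the 2 genes with the highest r were named. A few genes that these rules select are not reported here. Each library is a different mouse within a tissue, and the p-values of OT against OC within a tissue measure the spread between mice. The main fit of 14 libraries treated the ovary and uterus of a number as independent, so its p-values ignore that pairing. Other pseudocounts, filters, scalings, robust eBayes, blocks and leaving out each replicate were tried.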

Additional observations from a re-analysis of the deposited data

Results flagged for a closer look

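Within the 4 OT libraries of a tissue, the highest and lowest value of each member and named list gene were compared with the others, in 60 groups of which 20 were of members. A library stood apart by Dixon's criterion at the 95% level in 10 of them, and 8 of the 10 were the OT1 uterus. Chance gives about 1 in 20 such groups, and 1 of the 20 groups of members was marked. The list genes were named for their high or low differences between OT and OC, which a library that stands apart can set, so that their number cannot be read against chance.

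Of the members only Sirt3 did, with 15.1 FPKM in the OT1 uterus against 8.68 to 9.31 in the other OT uteruses. In the same library Nnmt had 44.9 FPKM against 9.06 to 14.6, Ppara 7.71 against 0.58 to 1.37, Acss2 58.8 against 10.2 to 12.0 and Akt2 63.3 against 33.6 to 38.3. Cat had 240.0 FPKM there against 51.0 to 76.4, Pck1 343.0 against 7.26 to 52.9, and Ep300 was low at 13.4 against 19.1 to 19.6. The OT1 uterus also had the highest summed adipocyte genes, whose part in these values was not tested. Outside that library, Skp2 had 6.57 FPKM in the OT3 ovary against 5.36 to 5.54, and Igfbp1 had 2.23 FPKM in the OT4 uterus against 0.0 to 0.268.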

How the results depend on the processing

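The count of members with an unadjusted limma p of at most 0.05 between OT and OC remained 0 in both organs under other pseudocounts, filters and scalings and robust eBayes. It became 1 in the ovary without OC1 (Foxo4) and 1 in the uterus in the fit of all 14 libraries (Sirt6, unadjusted p = 0.0249, adjusted p = 0.249). In the order of levels in the ovary, 6 of 10 members kept their rank when medians replaced means; Sirt7 and Foxo1, and Sirt3 and Foxo4, exchanged places. Signs of small differences changed when single replicates were left out. In the ovary the log2 differences then ranged from -0.15 to 0.030 for Sirt2, -0.10 to 0.11 for Sirt4, -0.069 to 0.066 for Sirt5 and -0.22 to 0.094 for Foxo1. In the uterus they ranged from -0.016 to 0.25 for Sirt3, -0.14 to 0.096 for Sirt4, -0.054 to 0.15 for Sirt7 and -0.22 to 0.11 for Foxo4. The cause was not tested. Between organs, Sirt2, Sirt6 and Foxo4 passed whichever replicate was left out.

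With the replicate number as a block (OT4 left out, as no OC mouse shares its number), 0 of 10 members had an unadjusted limma p of at most 0.05 in either organ, and with the library number as the block between organs the count of 3 was kept with the same genes and the count for the difference in response was 0. OC and OT libraries that share a number come from different mice. The ovary and uterus of a number correlated by 0.141 on average (0.074 to 0.254), against -0.0231 (-0.235 to 0.248) for the 42 pairs of different numbers. Of the libraries, 3 of 7 ovaries and 5 of 7 uteruses were closest to their own number. The main fit between organs was set without a block because the study ran no tissue test, not because of these correlations. Over all genes, the uterus had 2276 at an unadjusted limma p of at most 0.05 with the block and 2346 in the fit of 14 libraries (47 adjusted), against 1160. In the ovary the genes at the study's cutoffs numbered 18 with a pseudocount of 1, 159 without the filter and 103 with the block, against 65.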
